A study of Mus musculus with 6 samples.

Results

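The circular RNAs (circRNAs) described here are those whose back-splice positions lie 1 to 30 kb apart on the genome. They were chosen from the name of each probe, which gives a chromosome, a start, an end and a strand: a circRNA was kept when its end minus its start came to at least 1000 and at most 30000 bases. The rule kept 26130 of 37852 named circRNAs (69.0%), on an array of 150305 probes in all, and it used no measured value. Of the other circRNAs, 3484 spanned under 1 kb and 8238 spanned over 30 kb.

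The arrays compared prefrontal cortex of 3 Nrf2 knockout samples with prefrontal cortex of 3 wild type samples, all from male ICR mice (an outbred stock) of 3 to 4 months. NRF2, the protein of the gene Nfe2l2, is a transcription factor that switches on antioxidant and detoxifying genes. Which part of Nfe2l2 was deleted is not stated in the labels, and no treatment is named. No label says that the 6 samples are 6 animals, and the p-values therefore cover variation among the samples only, some or all of which may be technical. Knockout 1 shared slide 1 with wild type 1, 2 and 3, and knockout 2 and 3 were on slide 2.

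A circRNA forms when a splice donor is joined backwards to an acceptor upstream of it, which closes 1 or more exons of a gene into a loop without free ends. Such loops are long-lived and are abundant in brain, where many come from genes of synapses. The loops known best in brain include Cdr1as, which is packed with sites for the microRNA miR-7. A circRNA shares every exonic base with the linear RNA of its gene, called its host here, and is distinguished only by its back-splice junction.

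Each circRNA had 1 probe of 60 bases. How the probes lie on the junctions is visible in the letters of the deposited files, and 2 sets are shown because later results turn on them. The first set holds the probes of Pdk1, the gene of a pyruvate dehydrogenase kinase, with the bases that differ between loops sharing the acceptor in capitals.
Pdk1 chr2:71880039-71883932 (+): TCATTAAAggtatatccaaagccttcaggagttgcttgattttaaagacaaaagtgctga
Pdk1 chr2:71880039-71888994 (+): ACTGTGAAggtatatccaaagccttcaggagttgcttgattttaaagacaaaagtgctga
Pdk1 chr2:71880039-71895799 (+): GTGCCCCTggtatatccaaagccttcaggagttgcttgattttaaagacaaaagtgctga
Pdk1 chr2:71880039-71897760 (+): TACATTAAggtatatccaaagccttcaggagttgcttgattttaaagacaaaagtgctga
Pdk1 chr2:71883423-71888994 (+): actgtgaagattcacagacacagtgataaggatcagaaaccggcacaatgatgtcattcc
The first 4 probes are identical over their last 52 bases, which follow the shared acceptor, and differ over their first 8 bases, which come from the donor. The probe of the remaining Pdk1 loop begins with the same 8 donor bases as that of the other loop ending at 71888994. It continues from another acceptor and lacks the run of 52 bases.

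The second set holds the probe of Cdr1as, the mature miR-7a-5p from RefSeq (GRCm38.p6), and 3 probes that carry the same word. The capitals mark GTCTTCC in the probes and the seed (bases 2 to 8) in the microRNA, GGAAGAC, to which GTCTTCC is complementary.
Cdr1as chrX:61183248-61186174 (+): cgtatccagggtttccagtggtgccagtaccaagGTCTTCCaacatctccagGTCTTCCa
mmu-miR-7a-5p: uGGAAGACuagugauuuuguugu
Cdh12 chr15:21520265-21537670 (+): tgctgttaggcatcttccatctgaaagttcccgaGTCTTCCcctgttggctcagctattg
Rdm1 chr11:101628289-101634873 (+): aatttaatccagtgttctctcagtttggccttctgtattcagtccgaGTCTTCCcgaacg
E2f5 chr3:14587310-14588314 (-): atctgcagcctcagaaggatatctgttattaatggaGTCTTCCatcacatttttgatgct

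Levels are on a log2 scale on which 0 is the 75th percentile of the processed signals of all probes on the same array, so a level above 0 is brighter than most probes and a difference of 1 is a doubling. The signal of a probe depends on its bases as well as on its target, so levels of different probes are not amounts of RNA. Nfe2l2 itself checked the labels: a coding probe well above background on all 6 arrays measured -3.74, -3.79 and -3.46 in knockout, against 0.49, 0.39 and 0.35 in wild type. That was a log2 change of -4.08 (SE 0.12, adjusted p = 0.000613, limma). No circRNA of 1 to 30 kb lay in Nfe2l2. Marker genes of neurons, glia and endothelium were all well above background, and none of the marker genes passed the test. The summed linear level of 3 red cell genes was 462 to 497 in knockout and 352 to 454 in wild type, and that of 4 choroid plexus genes was 0.587 to 0.774 in knockout and 0.686 to 0.832 in wild type. Their part in the results below was not tested. Every array gave 150305 probes, of which 71.0% to 73.4% were well above background, and no spot was saturated. Knockout 2 and 3 stood apart from the other 4 arrays over many loops, and wild type 1 lost signal for 57 loops, most of them printed in 1 area, as described with the results they touch.

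The loops came from many genes. Of the 26130 circRNAs, 25543 lay within exactly 1 coding gene of GRCm38, 111 within several and 476 within none. There were 6157 hosts, of which 2050 had a single circRNA of this span and 631 had 10 or more. The 3 hosts with the most were Ryr2, a calcium release channel of the endoplasmic reticulum, with 61, Fn1, which encodes fibronectin, with 60, and Utrn, a relative of dystrophin, with 55. The median span was 8570.5 bases and the quartiles lay at 4192.5 and 15745 bases. For 20109 of them the strand of the host was known, and 19919 (99.1%) were on it. Hosts were assigned by position, so a loop whose host's strand was not known may lie on the opposite strand.

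Within a host the middles of the loops spread over the gene, with fewer in the end stretches. With each host divided into 5 equal stretches from its 5′ end, and each loop placed by its middle, the stretches held 14.1%, 23.3%, 25.5%, 24.2% and 12.8% of the loops on the host's strand. Every loop lies wholly inside its host, so the middle of a loop that covers much of the host cannot fall in an end stretch. The lower shares there are therefore partly set by the placement rule. Their median level was -1.66 in the first stretch, -1.28 in the central one and -0.97 in the last. Loops on the strand opposite to the host were few, at 190, and had a median level of -2.69, against -1.32 for loops on the host's strand.

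Most of the probes of these loops gave signal in both genotypes. Linear RNA of the host also carries the exonic bases on each side of a junction. How much of any signal reported here came from loops was not tested. In tissue of many cell types, fewer cells of a type and less RNA per cell cannot be told apart in any of the values that follow. The share well above background was 93.2%, 90.6% and 90.9% on knockout arrays 1 to 3, against 91.4%, 92.4% and 92.5% on wild type arrays 1 to 3. On all 6 arrays together, 22980 (87.9%) were well above background throughout and 1279 (4.89%) on none. There were 17 loops well above background on every knockout array and no wild type array, and 20 the other way round.

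The median level of the loops was -1.32, -1.35 and -1.30 on the knockout arrays, against -1.39, -1.33 and -1.37 on the wild type arrays. The group means of these medians were -1.32 ± 0.02 in knockout and -1.36 ± 0.03 in wild type (SD, n = 3 each). Their difference of 0.04 gave p = 0.2 in an exact two-sided permutation test, in which 3 arrays against 3 cannot go below 0.1. The knockout and wild type medians overlapped.

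Span was only weakly related to level among the loops, with a Spearman correlation of -0.04 across 26130 probes that share arrays and hosts. Between classes a step was measured on every array. The 1 to 30 kb loops had a median 0.29 lower than loops under 1 kb (-0.31 to -0.26 over 6 arrays) and 0.17 higher than loops over 30 kb (0.15 to 0.19). Both steps had one direction on 6 of 6 arrays, and each gave p = 0.031, also when adjusted over the pair, in an exact two-sided sign-flip test, the smallest p that 6 arrays allow. The arrays share their probes, so this test covers the spread between arrays and not the choice of probes. A difference of the step by genotype was not detectable: it came to -0.01 for knockout minus wild type against loops under 1 kb (exact permutation p = 0.5, adjusted 0.75) and -0.004 against loops over 30 kb (exact permutation p = 0.8, adjusted 0.8). The values just inside and outside the limits were mixed. With a span of exactly 1000 bases, the loop of Flii had a mean level of -1.21 and that of Zbtb8b -4.42, and one base shorter the loop of Rc3h1 had -1.86 and that of Dzip3 -2.07. At the upper limit, Itsn1 (29992 bases) had -0.15 and Carmil1 (29993 bases) -1.05, while Ipo11 (30002 bases) had -0.20 and Trio (30003 bases) -0.91.

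**Figure D1:**
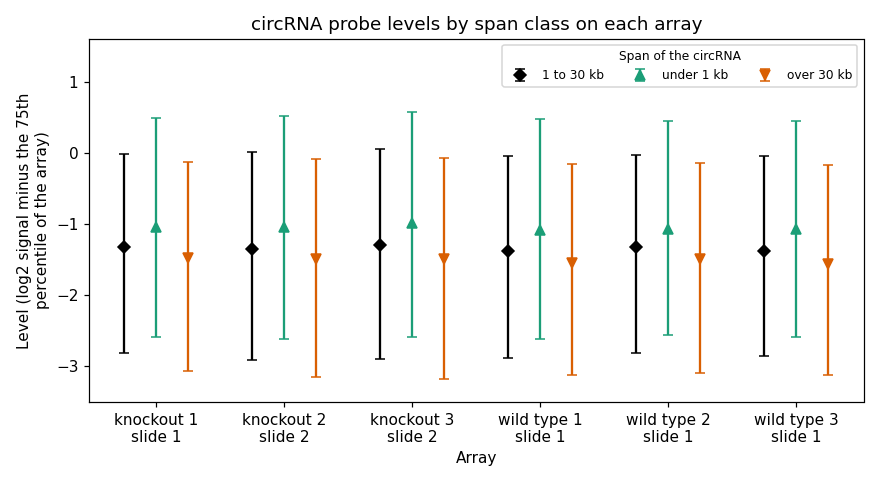
Level on each of the 6 arrays (log2 signal minus the array's 75th percentile), with the median as a symbol and the lower and upper quartile as bars, for loops of 1 to 30 kb (26130), under 1 kb (3484) and over 30 kb (8238). On every array the median of the 1 to 30 kb loops lies below that of the shorter and above that of the longer loops, and the quartiles overlap widely.

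By mean level over 6 arrays, with at most 1 loop per host, the 10 highest were hosted by Cox6a1 (8.53), Mknk2 (8.22), Tubb2a (8.01), Cdh12 (7.98), Cdon (7.90), Mdh1 (7.88), Rdm1 (7.88), Olfm1 (7.65) and Stmn3 (7.40), with Cdr1as at 7.64. Cox6a1 encodes a subunit of cytochrome c oxidase, Mdh1 the cytosolic malate dehydrogenase, Tubb2a a β-tubulin, Stmn3 a stathmin, and Cdh12 a cadherin. The Cox6a1 loop had 8.43, 8.65 and 8.62 in knockout, against 8.50, 8.49 and 8.49 in wild type, and the groups overlapped. The Cdh12 loop had 7.96, 7.81 and 7.78 in knockout, against 8.02, 8.13 and 8.15 in wild type. Here the groups were apart, with a log2 change of -0.25 that did not pass (SE 0.09, adjusted p = 0.319, limma).
Cdr1as had 7.42, 7.64 and 7.82 in knockout, against 7.63, 7.73 and 7.62 in wild type. The groups overlapped, and the log2 change was -0.03 (SE 0.12, adjusted p = 0.901, limma). With slide as a block it was -0.24, and knockout 1 lay below all 3 wild type arrays. A second loop at the same donor but from an acceptor further upstream, chrX:61181550-61186174, had -0.01, 0.06 and 0.22 in knockout, against 0.04, 0.21 and 0.17 in wild type.

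**Figure D2:**
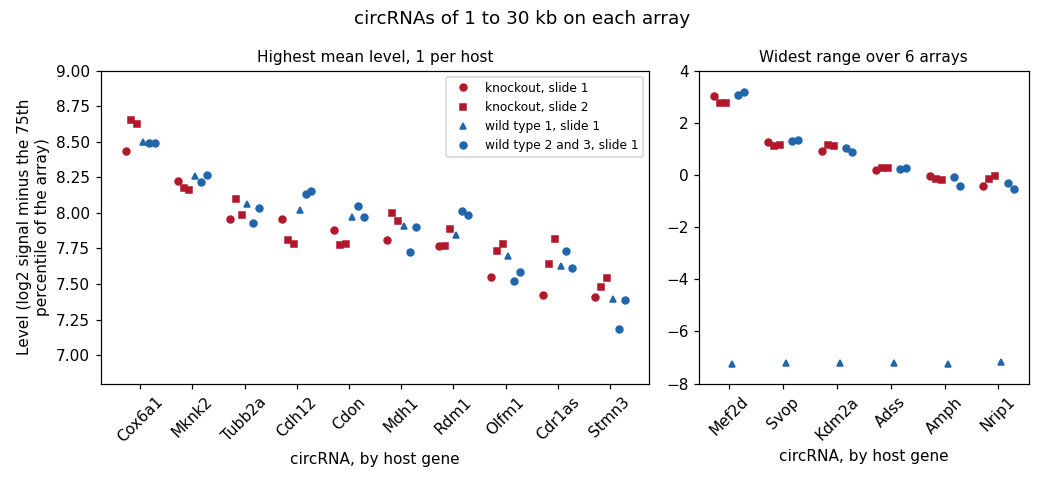
Level of single loops on each array (log2 signal minus the array's 75th percentile): on the left the 10 highest mean levels, at most 1 per host, and on the right the 6 widest ranges over the arrays among loops whose groups overlapped. The brightest loops lie between 7.19 and 8.65 on all 6 arrays, and the loops of widest range are near -7.2 on wild type 1 alone.

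The word GTCTTCC recurred among the brightest probes. It was looked at after the values were seen, together with a scan of all words of 8 bases, so its levels are a description. It occurs at 2 places in the Cdr1as probe and is held by 137 of 26130 probes of these loops (0.524%), whose median level was 0.33, against -1.36 for all of them. Of the 137, 29 (21.2%) had a mean level above 3, against 2.02% of all the loops. Its reverse complement, GGAAGAC, is held by 266 probes (1.02%), with a median of -1.81 and 1.13% above 3. The word was held by 0.440% of coding probes and 0.515% of other linear probes.

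The longer word GTCTTCCC, which contains the first, is held by 28 probes (0.107%) of 16 hosts, with a median level of 4.90 and 21 (75%) above 3. Among 26426 words of 8 bases held by at least 20 of the probes, it had the highest median, and the next highest was 3.03 for CCTCTCCC. Its reverse complement, GGGAAGAC, is held by 73 probes with a median of -1.78 and 0 above 3. The same letters on linear probes gave medians of 4.02 (37 coding probes, against -0.12 for all coding probes) and 4.32 (76 other linear probes, against -4.91). The 28 probes include Ppm1d, a protein phosphatase, and Ambra1, an autophagy regulator, but not Cdr1as or E2f5, in which the word is followed by A. The E2f5 probe was dim despite the shorter word, with a mean level of -4.43, and so were both Parn probes despite the longer one, at -2.39 and -2.62.
The median of the 28 probes was 4.77, 4.51 and 4.51 in knockout, against 5.21, 5.25 and 5.09 in wild type. All 3 knockout medians were below the wild type medians, and 0 of the 28 passed the test. Of the 26 whose host had a linear probe, 19 were above the brightest linear probe of the host, against 3.62% of all the loops with such a host. For Cdh12, Cdon and Rdm1 that linear probe had a mean level of 1.62, 0.64 and 2.29. From which RNA the signal of these probes came was not tested.

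Loops of 1 host were alike in level where their probes shared most letters. Of the loops, 45.6% shared their acceptor with another loop of this span, 41.8% shared their donor and 32.9% shared neither. Pairs of loops of 1 host that shared neither end differed by a median of 1.07 in level (75198 pairs, both probes well above background on all 6 arrays). Pairs with the same acceptor differed by 1.24 where the probes shared at most 12 bases at that end, by 0.51 at 41 to 45 bases and by 0.11 at 51 to 55 bases (3387 pairs). Pairs with the same donor differed by 0.97 at up to 12 shared bases (5267 pairs) and by 0.15 at 46 to 50 (109 pairs).

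**Figure D3:**
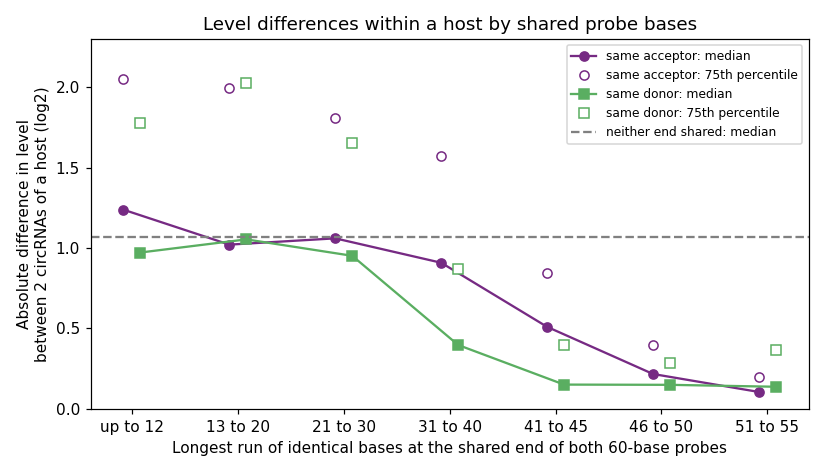
Absolute difference in mean level (log2) between 2 loops of the same host, by the number of bases that their 60-base probes share at the common end. Filled symbols are medians and open symbols 75th percentiles, for pairs with the same acceptor or the same donor, and the dashed line is the median of 1.07 for pairs with neither end in common.

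The final 50 bases were identical to those of another loop of this span for 4345 loops (16.6%), in 1833 families, of which 1828 had a single acceptor position. Within a family well above background throughout (1710 families), the levels spanned a median of 0.13. Thus the 26130 probes hold 23618 different final stretches, and loops of a family are not independent measurements of separate RNAs. Cdon, a cell surface receptor of hedgehog signalling, shows such a family with 6 loops. All 6 start at the acceptor at 35452045 on chromosome 9, and their probes, of which 3 are given with the differing bases in capitals, end in the same 51 bases.
Cdon chr9:35452045-35454449 (+): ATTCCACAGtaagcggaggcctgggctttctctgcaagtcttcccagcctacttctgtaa
Cdon chr9:35452045-35464228 (+): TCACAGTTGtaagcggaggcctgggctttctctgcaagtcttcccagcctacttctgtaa
Cdon chr9:35452045-35478689 (+): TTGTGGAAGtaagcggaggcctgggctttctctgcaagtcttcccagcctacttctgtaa
The 6 probes also hold GTCTTCCC, and their mean levels lay between 7.74 and 7.90. They were 7.62 to 7.89 in knockout, against 7.82 to 8.05 in wild type. Among 169 loops whose probe shares a run of 40 or more bases with a linear probe, the levels of 159 pairs well above background correlated at r = 0.97 across probes and differed by a median of 0.46. The labels' protocols name no treatment that removes linear RNA.

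Host level, taken from the brightest linear probe of the gene, was related to loop level. Pearson's r was 0.50 and Spearman's rho 0.48 over 25464 loops in 6130 hosts, points that share arrays and hosts. With the loops in 5 equal classes by host level, those in the lowest class had a median of -2.98 and those in the highest 0.21. The log2 changes of loop and host were nearly unrelated, with r = 0.07 over 23295 loops and the same sign in 54.3%. With slide as a block that r was 0.13.

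No loop of 1 to 30 kb passed the test between genotypes. In a fit across 105922 probes that were well above background on enough arrays, of which 23883 were loops of this span (91.4% of them), 0 of 23883 had an adjusted p under 0.05 (limma with Benjamini-Hochberg adjustment), against 10 of all probes (0.00944%). At an unadjusted p under 0.05 there were 3506 (14.7%; 2007 higher and 1499 lower in knockout), against 15.1% of all probes (6.11% higher and 8.94% lower). The knockout and wild type arrays did not overlap for 5518 loops (23.1%), of which 3851 were higher and 1667 lower in knockout, against 21.6% of all probes (11.1% higher and 10.4% lower). The median log2 change was 0.08, against 0.03 over all probes tested.

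The count of 0 depended on knockout 1, the knockout array on the slide of the wild type arrays, and to a small extent on wild type 1. With slide as a block, 0 loops passed, against 0.00661% of all probes, 825 had an unadjusted p under 0.05 (3.45%, against 5.69% of all probes) and the median log2 change was 0.04. On slide 1 alone, with the single knockout array assumed to vary like the wild type arrays, 0 passed, against 0.00378% of all probes, and 767 (3.21%) had an unadjusted p under 0.05, against 5.55% of all probes. Without knockout 1, so that genotype and slide cannot be told apart, 3504 loops passed (14.7%; 1136 higher and 2368 lower), against 12.8% of all probes (3.17% higher and 9.63% lower). In 1298 of these 3504, knockout 1 lay within the range of the wild type arrays.

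Without wild type 1, 3 loops passed, named after their values were seen and hosted by Wdr46, Iws1 and Lars (adjusted p = 0.0175, 0.0236 and 0.0422, limma). In each, wild type 1 was far from the other wild type arrays. The loop of Iws1, a transcription elongation factor, had -3.18, -3.61 and -3.46 in knockout, against -3.49, -0.62 and -0.75 in wild type. The loop of Wdr46 had -2.52, -3.00 and -2.49 in knockout, against -1.58, -6.91 and -7.42 in wild type, and that of Lars, a leucyl-tRNA synthetase, had -3.54, -4.34 and -3.79 in knockout, against -3.58, -7.32 and -7.15 in wild type. Over all 6 arrays their adjusted p-values were 0.331 to 0.399 (limma).

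The arrays of slide 2 stood apart over the loops. The first principal component of the 23854 loops without a missing value held 61.05% of the variance and was 50.98 and 47.98 for knockout 2 and 3, against -18.7 for knockout 1 and -34.5, -23.2 and -22.5 for the wild type arrays. Knockout 2 and 3 were both above all 4 arrays of slide 1 in 8246 loops (34.5%) and both below in 4866 (20.4%). Their mean was over 1 log2 unit lower than knockout 1 in 1068 loops, and over 1 higher in 44.

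Base composition moved with that split. In the 1491 loops whose probe had up to 35% G and C, the median level was -2.61, -3.41 and -3.39 on knockout 1, 2 and 3, against -2.61, -2.59 and -2.66 on the wild type arrays. At 50 to 55% it was -1.02, -0.94 and -0.92 on knockout 1, 2 and 3, against -1.10, -1.04 and -1.07 on the wild type arrays. Knockout 2 and 3 were thus lowest for the probes poorest in G and C and highest for the richer ones, while knockout 1 stayed beside wild type. The median log2 change ran from -0.20 at up to 35% to 0.14 at 50 to 55%, and with slide as a block it was 0.03 to 0.04 in each of the 6 classes.

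**Figure D4:**
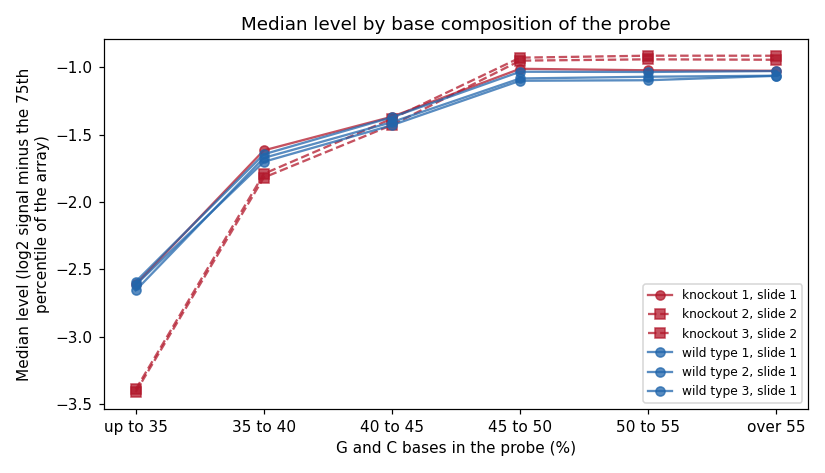
Median level of the loops (log2 signal minus the array's 75th percentile) by the share of G and C bases in the probe, one line per array. The lines of knockout 2 and 3 (slide 2, dashed) lie at -3.41 and -3.39 in the class of up to 35%, below the 4 arrays of slide 1, and above them from 45% upwards.

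Among loops whose groups did not overlap, the 8 with the smallest p on each side were taken, and none of them passed the test. Without knockout 1, when genotype and slide cannot be told apart, all 16 passed, with adjusted p-values of 0.00327 to 0.0299 (limma). In that fit 14.7% of all the loops and 12.8% of all probes passed. The 16 had been chosen by p on these same arrays, so their passing adds no support. With normexp background correction all 16 changes kept their direction but were smaller by 1.53 to 17.7 times, at 0.15 to 0.39 on the higher side and -0.58 to -0.05 on the lower side, and none passed (adjusted p = 0.0563 to 0.639, limma). On the higher side the first was hosted by Cercam, a cell adhesion gene of cerebral endothelium. It had -4.52, -4.46 and -4.36 in knockout, against -5.43, -5.67 and -5.49 in wild type, where it was not well above background on any array. The knockout mean of -4.45 was at least 1.52-fold higher than the bound for wild type, whose measured mean was -5.53 (adjusted p = 0.0907, limma; 0.305 with slide as a block, and 0.0044 to 0.611 over the alternatives).

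Pigs, whose protein attaches GPI anchors, hosted a loop with signal on all 6 arrays. It had -1.79, -1.98 and -1.96 in knockout, against -2.66, -2.69 and -2.59 in wild type. The log2 change was 0.74 (SE 0.09, adjusted p = 0.222, limma; 0.267 with slide as a block, and 0.00829 to 0.626 over the alternatives), and the gap between the groups was wider than the spread within either. Rbm20, a splicing regulator of muscle, hosted a loop with means of -4.64 in knockout and -5.72 in wild type, at least 1.33-fold higher (adjusted p = 0.204, limma), and no wild type array had it well above background. The other 5 on this side, hosted by Svil, Ano4, Gtf2ird1 and Dnah5 and, at chr13:34607869-34630462, by no coding gene, had log2 changes of 0.58 to 0.81 and adjusted p-values of 0.260 to 0.307 (limma).

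On the lower side, Pdk1 gave 3 of the 8 loops. The loop at chr2:71880039-71897760 had -1.79, -1.94 and -1.84 in knockout, against -0.99, -0.995 and -0.98 in wild type. Its log2 change was -0.87 (SE 0.08, adjusted p = 0.102, limma; 0.292 with slide as a block, and 0.00396 to 0.589 over the alternatives). The loops ending at 71883932 and 71888994 had log2 changes of -0.93 and -0.70 (adjusted p = 0.218 and 0.247, limma), and the loop ending at 71895799, named after its values were seen, had -0.76 (adjusted p = 0.286, limma). In all 4 the groups were apart, and the 4 share the last 52 bases of their probes, given above.

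The Pdk1 loop from the other acceptor, chr2:71883423-71888994, had -1.34, -1.44 and -1.56 in knockout, against -1.54, -1.40 and -1.39 in wild type. Its log2 change was 0.00 (SE 0.10, adjusted p = 0.996, limma), and the groups overlapped. The 3 linear probes of Pdk1 had log2 changes of -0.60 (SE 0.10), -0.29 (SE 0.13) and 0.05 (SE 0.09), none of which passed (adjusted p = 0.286, 0.346 and 0.770, limma). Pdk1 lies 3.77 Mb from Nfe2l2 on chromosome 2.

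**Figure D5:**
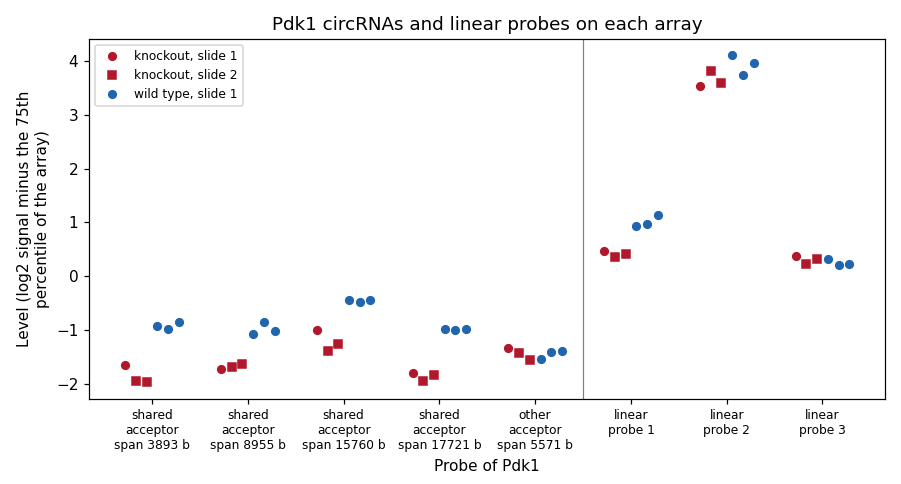
Level of the 5 Pdk1 loops and the 3 linear Pdk1 probes on each array (log2 signal minus the array's 75th percentile), knockout left of wild type for each probe. The groups are apart for the 4 loops with the shared acceptor and for the first linear probe, and overlap for the loop from the other acceptor and the other linear probes.

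The loop with the smallest p on the lower side lay within E2f5, the gene of a cell cycle transcription factor. The strand of E2f5 was not known here, so whether the loop lay on it was not checked. This loop had -5.03, -5.05 and -4.96 in knockout, where 2 of 3 arrays were well above background, against -3.91, -3.97 and -3.64 in wild type. The log2 change was -1.17 (SE 0.11, adjusted p = 0.0997, limma; 0.313 with slide as a block, and 0.00624 to 0.628 over the alternatives), and -0.14 with normexp.
Aox1, an aldehyde oxidase, hosted a loop with -5.41, -5.18 and -5.54 in knockout, not well above background on any array, against -4.06, -3.35 and -3.69 in wild type. The wild type mean of -3.70 put the knockout at least 2.67-fold lower (adjusted p = 0.189, limma; measured knockout mean -5.38). The brightest linear probe of Aox1 did fall, by 2.06 on the log2 scale (adjusted p = 0.0087, limma).

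The last 3 on the lower side were faint in knockout. The loops of Nrp1, a receptor for semaphorins and VEGF, and Cdca2 were not well above background on any knockout array and were at least 2.68-fold and 1.73-fold lower in knockout (both adjusted p = 0.259, limma), with measured means of -5.78 and -5.51 in knockout, against -3.69 and -4.32 in wild type. Diaph3, a formin, hosted a loop with means of -4.97 in knockout and -4.14 in wild type and a log2 change of -0.84 (adjusted p = 0.251, limma) that was -0.05 with normexp.

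By host group, no list of genes held a loop that passed the test. The 9 lists cover known circRNA hosts, postsynaptic, presynaptic and ion channel genes, RNA-binding proteins, chromatin regulators, ubiquitin ligases, NRF2 targets, and glial and vascular genes, with 33 to 301 loops each. In each of the 9, 0 loops rose and 0 fell, and the median log2 change was 0.05 to 0.13, against 0.08 for all the loops tested. For the counts without overlap that follow, the shares over all the loops were 16.1% higher and 6.98% lower in knockout. Over all probes they were 11.1% higher and 10.4% lower, together 21.6%.

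Genes of the presynapse hosted 151 loops in 23 genes with a median level of 0.37. Of 146 tested, 46 were higher and 4 lower in knockout with groups that did not overlap (34.2%, against 23.1% of all the loops and 21.6% of all probes). Their median log2 change was 0.12, and 0.10 with slide as a block. The brightest was hosted by Snap25, a vesicle fusion protein. It had 6.18, 6.28 and 6.43 in knockout, against 6.05, 6.02 and 6.17 in wild type (log2 change 0.22, SE 0.10, adjusted p = 0.355, limma), and the change was 0.10 with slide as a block. The smallest p was that of Stxbp5l, a regulator of vesicle release, with -4.22, -5.19 and -5.19 in knockout, where 1 of 3 arrays was well above background, against -3.38, -2.99 and -3.82 in wild type. Its log2 change was -1.47 (SE 0.32, adjusted p = 0.307, limma), -0.83 with slide as a block and -0.25 with normexp.
Ion channel genes had 54 higher and 8 lower without overlap of 190 tested (32.6%, against the same 23.1% of all the loops and 21.6% of all probes). Their median log2 change was 0.13, and 0.10 with slide as a block. Scn8a, a sodium channel, hosted the brightest of them, with means of 3.95 in knockout and 4.00 in wild type. Kcnn2, a calcium-activated potassium channel, hosted that of smallest p, with -0.43, -0.36 and -0.19 in knockout, against -0.65, -0.75 and -0.74 in wild type (log2 change 0.39, SE 0.10, adjusted p = 0.307, limma).

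Postsynaptic genes hosted 161 loops, of which 30 were higher and 8 lower without overlap among 160 tested, a share of 23.8% that lay near the 23.1% of all the loops. Dlg4, which encodes the scaffold PSD-95, hosted the brightest, with 5.0, 4.24 and 4.23 in knockout, against 5.25, 5.07 and 5.27 in wild type. Its log2 change was -0.71 (SE 0.22, adjusted p = 0.307, limma), and -0.20 with slide as a block. Gria1, a glutamate receptor subunit, hosted that of smallest p, which no wild type array had well above background. It was at least 1.24-fold higher in knockout (adjusted p = 0.307, limma), with means of -4.74 in knockout and -5.76 in wild type. With normexp its log2 change was 0.20. Whether this loop lay on the strand of Gria1 was not checked.
The list of known circRNA hosts had 18 higher and 14 lower without overlap of 110 (29.1%, against 23.1% of all the loops). Its brightest loop was that of Homer1, a scaffold of the postsynaptic density, with 3.61, 2.97 and 3.05 in knockout, against 3.91, 3.76 and 3.86 in wild type. The log2 change was -0.63 (SE 0.18, adjusted p = 0.307, limma), and -0.24 with slide as a block.

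NRF2 targets hosted 65 loops in 13 of 34 genes, with a median level of -2.80. Of 61 tested, 9 were higher and 11 lower without overlap (32.8%, against 23.1% of all the loops). The brightest was hosted by Fth1, the ferritin heavy chain, with 6.89, 7.004 and 7.04 in knockout, against 6.78, 6.90 and 6.86 in wild type (log2 change 0.13, SE 0.09, adjusted p = 0.463, limma), and the change was 0.05 with slide as a block. Chromatin regulators had 37 higher and 16 lower without overlap of 236 (22.5%, near the 23.1% of all the loops), and the loop of smallest p was that of Ehmt1, a histone H3 lysine methyltransferase. It had 2.28, 0.75 and 1.08 in knockout, against 3.19, 3.29 and 2.89 in wild type, a log2 change of -1.76 (SE 0.38, adjusted p = 0.307, limma) that was -0.85 with slide as a block. The brightest was hosted by Chd3, a chromatin remodeller, with 5.18, 5.74 and 5.68 in knockout, against 5.27, 5.19 and 5.25 in wild type, and the groups overlapped. For Ehmt1 the knockout arrays of slide 2 were lower than knockout 1, and its probe is one of the 28 with GTCTTCCC.

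Ubiquitin ligase genes had 42 higher and 18 lower without overlap of 295 (20.3%), RNA-binding protein genes 22 higher and 8 lower of 137 (21.9%), and glial and vascular genes 8 higher and 3 lower of 33 (33.3%), against 23.1% of all the loops. The first pair of shares lay near that background. The brightest loop of the RNA-binding list was hosted by Rbfox3 (4.46 in knockout and 4.47 in wild type) and that of the glial and vascular list by Mbp, the myelin basic protein (6.22 in knockout and 6.08 in wild type), with adjusted p-values of 0.587 to 0.985 (limma). Celf2, a splicing regulator, had the smallest p among RNA-binding proteins, with 0.77, 0.99 and 1.04 in knockout, against 0.58, 0.48 and 0.64 in wild type (log2 change 0.36, SE 0.11, adjusted p = 0.307, limma), and the change was 0.20 with slide as a block. The loop of smallest p among ubiquitin ligases was that of Fbxw7, not well above background in knockout and at least 1.71-fold lower there (adjusted p = 0.259, limma; means -5.30 in knockout and -4.33 in wild type). Among glial genes it was that of Gfap, the astrocyte filament protein, likewise not well above background in knockout and at least 2.09-fold lower (adjusted p = 0.307, limma; means -5.57 in knockout and -4.05 in wild type). With normexp the log2 changes were -0.06 for Fbxw7 and -0.17 for Gfap.

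The hosts with the most loops showed how far loops of 1 gene differ. Those of Ryr2 ran from a mean level of -3.08 to 2.79, those of Fn1 from -3.68 to 2.91, and those of Utrn from -4.24 to 4.61. Over 1572 hosts with at least 5 loops well above background on all arrays, the loops of a host spanned a median of 3.18 log2 units. The brightest Utrn loop had 4.81, 3.98 and 3.82 in knockout, against 5.07, 4.93 and 5.03 in wild type (log2 change -0.81, SE 0.26, adjusted p = 0.307, limma). With slide as a block that change was -0.20.

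A few loops were missing from a single array. On wild type 1, 57 loops lay over 3 log2 units below every other array and were not well above background there alone, against 0 loops on each of the other 5 arrays. Of these 57, 52 were printed in rows 250 to 550 and columns above 140 of an array of 1064 rows and 170 columns, an area that holds 5.19% of the loops. Among loops well above background on at least 3 arrays whose groups overlapped, the 6 of widest range over the arrays were all of this kind. That of Mef2d, an activity-dependent transcription factor of neurons, had 3.04, 2.74 and 2.78 in knockout, against -7.23, 3.07 and 3.20 in wild type. That of Svop, a synaptic vesicle protein, had 1.28, 1.12 and 1.16 in knockout, against -7.22, 1.29 and 1.34 in wild type. In both, wild type 1 alone was far from the other arrays.

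Of the 476 loops within no coding gene, 30 formed the largest group, all on the plus strand of chr17:39843406-39846156, an interval with no gene in the annotation used. These probes were not aligned to a genome here, so whether the same letters occur elsewhere, and from which RNA the signal came, was not tested. All 30 were well above background on all 6 arrays, with a median level of 3.83, against -2.82 for the other 446. Their medians were 3.86, 4.22 and 3.90 in knockout, against 3.84, 3.58 and 3.60 in wild type, so that the groups were apart by less than the spread within either. None passed the test, and 13 (43.3%) were higher in knockout without overlap, against 16.1% of all the loops and 11.1% of all probes. Of the 30, 9 (30%) had an unadjusted p under 0.05, against 14.7% of all the loops, and 0 with slide as a block.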

How the data were processed

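Total RNA of 6 prefrontal cortex samples was labelled with Cy3 and hybridised to 1 array each, per the labels. The deposited scanner files hold linear intensity values, and per the file headers the scanner software was Agilent Feature Extraction 12.0.3.1. Version 10.7 and limma are named in the submitters' processing notes. The authors' deposited value table is on a log2 scale by comparison with these files, and no source used here states its normalization. Its 6 column medians were 5.588 or 5.589. Its values differed from quantile-normalized processed signals by a median of 0.0036 to 0.0043 on each array. The authors' table and quantile normalization are therefore nearly the same alternative. All columns had a sample.

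Control spots and outlier flags were left out, and log2 of the processed signal was centred on each array's 75th percentile. No probe name was repeated among the other spots of an array, so no spots were averaged. Probes well above background on all 3 arrays of at least 1 group were tested with limma 3.58.1 (R 4.3.3), knockout against wild type, over all probes with Benjamini-Hochberg adjustment at 0.05. The fit was tested on simulated data. Precision is limited by the number of arrays. Slides came from the array barcodes. An "at least" fold sets the brighter group's mean against, per array, the higher of the dim probe's signal and the lowest signal well above background. The headers name an mm9 design, but 97.4% of the circRNA names lie inside coding genes of GRCm38 (RefSeq GRCm38.p6) and 35.9% after a shift by 1 Mb, so hosts were taken from GRCm38; coordinates are printed as the names give them. Members and lists were chosen with earlier results of these data known. Named loops were the 8 of smallest p on each side without overlap, the 10 brightest, the 6 of widest range, the 3 hosts with most loops, Cdr1as, up to 2 per host list and those at the span limits. The 6 of widest range were taken among loops well above background on at least 3 arrays whose groups overlapped. Not all of the named loops are reported here.

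Alternatives were slide or replicate number as a block, slide 1 alone, normexp background correction (offset 50), quantile, median and circRNA-percentile scaling, the authors' table, 2 filters, outlier flags kept, each array left out, narrower span limits, and adjustment over circRNAs only.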

Additional observations from a re-analysis of the deposited data

How the results depend on the processing

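The count of 0 loops passing held under 17 of 19 alternatives, and was 3504 without knockout 1 and 3 without wild type 1. At an unadjusted p under 0.05, 466 loops were higher and 359 lower with slide as a block, 407 and 360 on slide 1 alone, 3170 higher with normexp, and 1036 higher with the 75th percentile taken over circRNA probes, against 2007 and 1499. The share of higher loops among these was 57.2%, and it was 68.3% with normexp, 46.03% with the replicate block and 33.4% with the circRNA percentile. The median log2 change was 0.035 with slide as a block and on slide 1 alone, 0.13 with median centring and 0.020 with the circRNA percentile. Without overlap, 7476 loops were higher and 4504 lower on slide 1 alone, and 2379 were higher with the circRNA percentile. Same-numbered samples correlated at -0.013, -0.050 and 0.038 in their deviations from the group means, and differently numbered ones at -0.028 to 0.046. The slide split and wild type 1 weigh on these deviations, so whether replicate numbers pair the samples cannot be told from them. The replicate block gave 0 loops passing and 1303 higher at an unadjusted p under 0.05.

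On their own scales, the median level in knockout was 6.74 in the authors' table and with quantile normalization, -1.36 with the circRNA percentile, 1.17 with median centring, -0.98 with normexp and -1.02 for loops well above background on all 6 arrays. In wild type it was 6.69, 6.68, 1.08, -1.02 and -1.06 for the authors' table, quantile, median centring, normexp and the stricter filter. The genotype difference in the step against loops under 1 kb became 2.65e-05 with that filter and 0.010 on slide 1 alone. The Cdr1as change became 0.019 with median centring.

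Leaving out 1 array at a time gave 0 to 3504 loops passing, 604 to 5323 higher and 544 to 3865 lower at an unadjusted p under 0.05, 4285 to 9305 higher and 1990 to 5212 lower without overlap, and a median log2 change of 0.054 to 0.104. The steps were -0.30 to -0.29 against loops under 1 kb and 0.16 to 0.17 against loops over 30 kb, with an exact sign-flip p of 0.0625, the smallest that 5 arrays allow. Their genotype differences were -0.021 to 0.0041 and -0.016 to 0.0048, and the Cdr1as change was -0.13 to 0.070. Median levels were -1.33 to -1.31 in knockout and -1.38 to -1.35 in wild type. Of the 24 loops named by smallest p or as Cdr1as, 22 passed without knockout 1, against 14.7% of all the loops. Nearly all of them had been chosen by p on the same arrays. The causes were not tested. Loops not well above background have only a bound, and 3 arrays a group limit the precision.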

Other observations

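The loops of 2 long non-coding genes were read after their values were seen and are given as values. Of 8 loops within Neat1, the scaffold RNA of paraspeckles, on chr19:5825260-5829611, the medians were -3.70, -3.97 and -4.09 in knockout, against -3.26, -2.90 and -3.79 in wild type, and 5 had an unadjusted p under 0.05. Of 6 loops in the interval of Rian, an imprinted RNA that hosts small nucleolar RNAs, at chr12:109617174-109645926, the medians were 0.85, 1.01 and 1.13 in knockout, against 0.74, 0.81 and 0.71 in wild type, and 4 had an unadjusted p under 0.05. The groups of these medians were apart for Rian and overlapped for Neat1. None of the 14 passed the test. Over all the loops tested, 14.7% had an unadjusted p under 0.05, against 15.1% of all probes. With slide as a block the share of all the loops was 3.45%, and the counts for these 14 with that block are not given here.

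Loops near Nfe2l2 were also read after their values were seen. Of 193 tested loops within 5 Mb of it on chromosome 2, which came from 39 hosts, the groups did not overlap in 29.0% while 20.7% had an unadjusted p under 0.05. Blocking on slide made that last share 9.84%. Of 2471 loops over 10 Mb away on chromosome 2 these 3 shares were 23.3%, 13.9% and 2.99%. Over all probes tested they were 21.6%, 15.1% and 5.69%. Loops of a host are not independent, and the near set includes the Pdk1 loops whose probes are nearly the same. None of either set of loops passed the test.

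Among loops well above background on all 6 arrays whose groups overlapped, some of the widest ranges came from wild type arrays that were high. The loop of Fyb, an adaptor protein of blood cells, had -4.46, -4.00 and -3.61 in knockout, against -4.04, -0.06 and -1.28 in wild type. The loop of Tjap1, a tight junction protein, had -4.55, -4.22 and -4.40 in knockout, against -0.75, -4.36 and -4.94 in wild type.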
